A study of Mus musculus with 9 samples.

Results

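The comparison concerns 390 of the 787 brain capillary endothelial cells of the study, which holds 1235 cells in all. The cells were chosen by their measured level of Slc38a5, a gene for a neutral amino acid transporter, on which the cells labelled capilEC were ranked within each plate and divided into 4 quartiles of about equal size. The highest quartile, 195 cells, is called Slc38a5-high here and stands for the venous side of the capillary bed. The lowest quartile, also 195 cells, is called Slc38a5-low and stands for the arterial side. Both groups came from the same plates, and the labels name no treatment or genotype. Quartiles 2 and 3 held 198 and 199 cells. All other genes were then compared between the ends of this ranking, and these middle quartiles show whether a gene's level lay between them.

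Blood in the brain passes from arteries through capillaries to veins, and endothelial cells along this path differ gradually in what they express, which is called zonation. Arterial endothelium is known for Notch signalling, gap junction proteins and netrin receptors. Venous endothelium is known for the transcription factor Nr2f2, for von Willebrand factor and for leukocyte adhesion molecules, while capillaries carry most of the transporters of the blood-brain barrier. Slc38a5 moves glutamine and other small neutral amino acids and is known as a gene of venous and venous-side capillary endothelium of the mouse brain.

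The cells came from microvascular fragments of adult mouse brain, digested to single cells. They were placed by sorting into 384-well plates, and their libraries were made by Smart-seq2, a full-length method without molecular identifiers. There were 4 plates, named s169s, s480s, s482s and s483s. Besides capilEC, the labels used below are vEC (45 cells), aEC (116 cells) and MG (137 cells), which the labels give as abbreviations without saying how cells were assigned. Each label was deposited as 1 sample and animals were not named, so no test was possible. A difference is therefore described by its size, by its value on each plate and by counting error, and cells and plates are not taken as replicates.

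Slc38a5 itself made the groups, so its values are a description only. Summed over all reads of a quartile it stood at 6.14, 37.3, 776 and 2143 counts per 1000000 reads (CPM) from the lowest to the highest quartile. At the upper cut, the last cell inside and the first outside had 1508 and 1442 CPM on s169s, 1303 and 1290 on s480s, 1147 and 1135 on s482s, and 1380 and 1321 on s483s. At the lower cut the corresponding pairs were 22.18 and 22.22 CPM on s169s, 4.86 and 5.03 on s480s, 8.47 and 9.35 on s482s, and 13.4 and 13.8 on s483s. The cuts thus fell inside a continuous range on every plate. In vEC the pooled level was 2026 CPM, close to that of the Slc38a5-high quartile, and in aEC it was 47.4 CPM.

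The lower end of the ranking lay at background. MG cells, in which the microglial list summed to 41480 CPM and the pan-endothelial list to 1383 CPM, had a pooled Slc38a5 level of 23.0 CPM and a median of 9.31 CPM per cell. With each cell thinned to 100000 reads, 100% of Slc38a5-high cells held a Slc38a5 read, against 49.2% of Slc38a5-low cells (exact binomial 95% interval 42.0 to 56.5%). The share in MG was 62.0% (53.4 to 70.2%), at a median depth of 232674 reads per cell against 215193 in the low quartile. All 195 Slc38a5-low cells and 153 of the 198 cells of quartile 2 lay at or below the 95th percentile of MG cells on their plate, and 0 cells of quartile 3 did. That percentile was 53.5, 13.4, 195 and 21.1 CPM on s169s, s480s, s482s and s483s, from 44, 49, 34 and 10 MG cells. It was highest on s482s, where 1 MG cell had 1186 CPM and was not the only MG cell above 195 CPM. Cells of quartile 2 on s482s with up to 195 CPM were thus counted as background. The count for s482s, and the 153 cells that include it, may therefore be too high. In the same order of plates, 55 of 56, 25 of 38, 48 of 50 and 25 of 54 cells of quartile 2 lay at or below the percentile of their plate. The order of cells at or below this percentile therefore cannot be read as an order of expression, and quartile 2 was also used as an alternative low group.

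**Figure D1:**
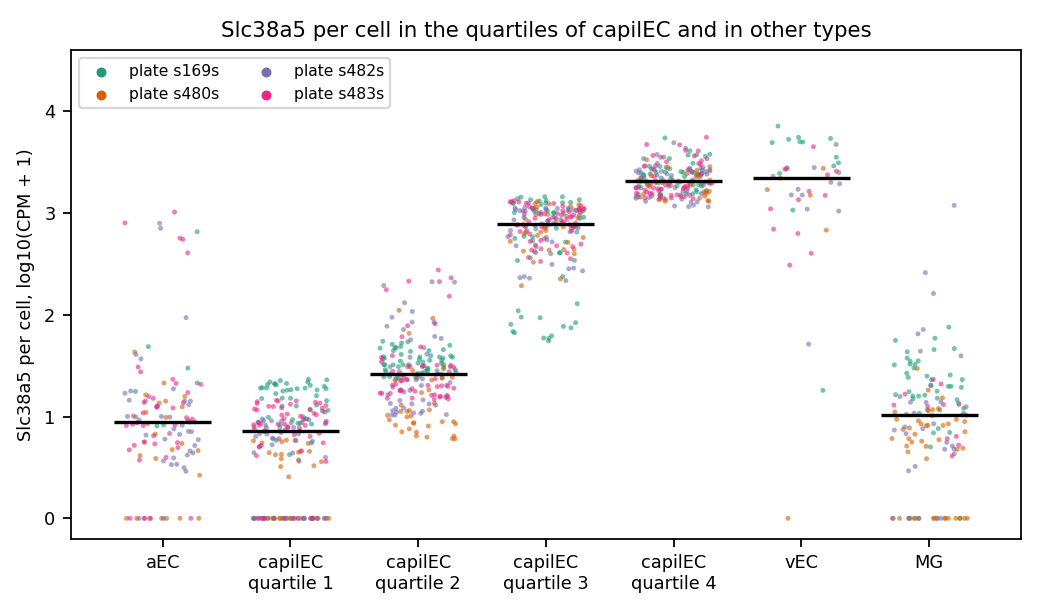
Slc38a5 per cell as log10(CPM + 1) on the vertical axis, in aEC, in the 4 quartiles of capilEC from lowest to highest, in vEC and in MG. Points are single cells coloured by plate and black lines are medians. Quartiles 1 and 2 overlap most of the MG cells and quartile 4 overlaps vEC. Quartile 3 lies between 54.4 and 1442 CPM, a range that a few MG cells also reach, up to 1186 CPM.

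In depth and identity the quartiles at the ends were alike. Median reads per cell were 201342 in the high and 215193 in the low quartile, and the groups summed to 44022664 and 46458516 reads. Thinned to 100000 reads, the median cell had 2851 genes with a read in the high and 2740 in the low quartile, and mitochondrial genes took 1.99% and 1.82% of reads. The 15 pan-endothelial markers, among them Pecam1, Cdh5 and Cldn5, summed to 20720 CPM in the high and 20580 CPM in the low quartile, so cells of both quartiles carried the endothelial identity of their label. Of 12 microglial and 12 astrocyte markers, none was at 0 except Slc6a11, an astrocyte marker, in the low quartile. The microglial list summed to 293 CPM in the high and 323 CPM in the low quartile, and the astrocyte list to 1167 and 1353 CPM, of which Apoe made 1042 and 1218 CPM. The 14 mural markers summed to 130.1 and 165 CPM. Markers of neurons, oligodendrocytes, blood and fibroblasts summed to 71.1 and 111 CPM, with the oligodendrocyte gene Mog at 0 in the low quartile. The share of these levels in any difference below was not tested, but without the 54 capilEC cells that carried markers of another class the medians of the arterial and venous lists were -2.06 and 1.44, against -2.03 and 1.43 with them.

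Of 4334 genes with enough reads to be compared, 54 were at least 2-fold higher in Slc38a5-high cells (1.25%) and 67 at least 2-fold lower (1.55%). In the higher group such a gene reached 20 CPM or more and was read in at least 30% of cells, and folds are taken on CPM + 5. With the same direction on all 4 plates, 41 genes were higher (0.946%) and 54 lower (1.25%). The leading genes of each direction described below come from these, and members of gene lists are named whether or not they passed. The median log2 difference over 11403 measured genes was -0.005. The counts depend on where the thresholds stand: with 20 CPM added in place of 5 they were 25 and 32, and at equal depth 35 and 27. Of the 30 leading genes 15 lost their call at equal depth, among them Adh1, Flrt2, Car14, Cd38, Nr2f2, Gja4 and Unc5b. Of these 15, P2rx4 stood at 0.43 and the other 14 were still at least 2-fold apart but missed the minimum share of cells or level. The counts also became larger when any plate was left out, which leaves fewer cells in each group, and the cause was not tested. Without s169s they were 85 and 84, without s480s 92 and 103, without s482s 96 and 113, and without s483s 94 and 111. Of the 54 higher and 67 lower genes, 32 and 44 were called again without s169s, 48 and 54 without s480s, 42 and 57 without s482s, and 45 and 53 without s483s.

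Genes of veins were higher on the Slc38a5-high side. Adh1, the alcohol dehydrogenase that also oxidises retinol, was the gene with the largest difference. It had 88.8, 146, 113 and 164 CPM in Slc38a5-high cells of s169s, s480s, s482s and s483s, against 0.951, 18.2, 14.7 and 2.05 CPM in Slc38a5-low cells of the same plates. Every plate of the high quartile was above every plate of the low quartile. Pooled, Adh1 stood at 129.7 CPM in high cells (exact Poisson 95% interval 126.4 to 133) and 8.85 CPM in low cells (8.01 to 9.75), a log2 difference of 3.28. These intervals cover counting error only, and reads amplified without molecular identifiers are not independent, so the spread over plates is the wider guide. The start region of Adh1, as the gene with the largest difference, is given with that of Slc38a5, the gene that made the groups. Both are 300-base windows around the gene start from RefSeq, build GRCm38.p6, read 5' to 3' on the strand of the gene. Capitals mark CACGTG, a motif that Hey proteins bind, and TTCCCA, the reverse complement of the Rbpj motif TGGGAA. The Slc38a5 window is chrX:8271131-8271430 on the plus strand and the Adh1 window is chr3:138277335-138277634 on the plus strand.
Slc38a5: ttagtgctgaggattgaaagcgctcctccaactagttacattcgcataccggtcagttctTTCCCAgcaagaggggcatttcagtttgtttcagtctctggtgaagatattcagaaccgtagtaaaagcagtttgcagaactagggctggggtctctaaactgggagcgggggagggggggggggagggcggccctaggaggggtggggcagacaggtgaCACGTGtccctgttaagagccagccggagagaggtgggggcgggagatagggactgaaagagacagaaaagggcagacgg
Adh1: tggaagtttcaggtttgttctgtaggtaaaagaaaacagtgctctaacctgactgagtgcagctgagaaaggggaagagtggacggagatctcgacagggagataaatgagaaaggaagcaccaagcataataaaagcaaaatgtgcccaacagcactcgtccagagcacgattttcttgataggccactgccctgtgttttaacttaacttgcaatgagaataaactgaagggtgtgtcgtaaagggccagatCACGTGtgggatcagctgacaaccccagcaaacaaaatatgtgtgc
On either strand, CACGTG was in 7.24% and TGGGAA in 25.5% of the 27025 windows of the table, so neither match is rare. The motif AGGTCA, bound by nuclear receptors such as Nr2f2, was in 16.0% of all windows and in neither of these. A match here describes letters and is no binding site.

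Flrt2, which encodes a membrane protein that binds receptors of the Unc5 family, was the second. It had 115, 206, 125 and 156 CPM in high cells on the 4 plates in the order above, against 1.43, 5.76, 35.1 and 24.1 CPM in low cells, with no overlap. The pooled levels were 150.0 and 17.3 CPM, a log2 difference of 2.80. Car14, a membrane carbonic anhydrase, stood at 144 CPM in high and 34.6 CPM in low cells (1.92), with differences from 0.87 to 3.35 by plate. Its annotated span overlaps that of Aph1a, so part of its reads may belong there.

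Several known venous genes followed. Tmem252, which overlaps Pgm5 in the annotation, had 322, 132, 176 and 149 CPM in high cells against 107, 37.7, 40.9 and 41.5 CPM in low cells (1.70, plates between 1.54 and 1.98). The plates of the 2 quartiles did not overlap. Vwf, which encodes von Willebrand factor, had 246, 519, 286 and 467 CPM in high cells against 108, 195, 92.0 and 83.2 CPM in low cells (1.65). Nr2f2, the transcription factor that specifies veins, was low in both quartiles, with 38.4, 19.7, 33.9 and 51.5 CPM in high cells against 2.19, 13.2, 12.1 and 6.76 CPM in low cells. Its pooled difference of 1.62 rested on 17 high and 4 low cells above 50 CPM.

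The remaining leaders were enzymes and secreted or membrane proteins. Ndnf, a secreted neurotrophic factor, had 436, 408, 711 and 574 CPM in high cells against 140.1, 175, 149 and 230.4 CPM in low cells (1.59), and 100 high cells against 47 low cells had more than 50 CPM. Fmo1, a flavin monooxygenase, stood at 188 CPM in high and 55.6 CPM in low cells (1.67). At equal depth it was read in 56.9% of high and 57.4% of low cells, and 52 high against 22 low cells had more than 50 CPM. Hs3st1, a heparan sulfate sulfotransferase, stood at 233 and 72.0 CPM (1.63), and Cd38, an enzyme that breaks down NAD, at 116 and 33.6 CPM (1.65). Prcp, a peptidase that cleaves angiotensin, stood at 115 and 38.1 CPM (1.48). The plates did not overlap for any of the 13 genes named here as higher in Slc38a5-high cells. Sord, the sorbitol dehydrogenase, had 35.2 CPM in high and 7.13 CPM in low cells, and P2rx4, an ATP-gated channel, 36.8 and 9.86 CPM. Only 8 high and 2 low cells had more than 50 CPM of Sord, and 1 cell held 20.2% of its reads in high cells. Neither Sord nor P2rx4 was ordered over the quartiles, and P2rx4 had 47.0 CPM in quartile 2, above its level in quartile 4.

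As a list, the venous markers were higher on the Slc38a5-high side. Leaving out Slc38a5, 14 of 19 were measured and 13 had a positive difference. Of the 8 with enough reads to be compared, 6 were at least 2-fold higher, beside 1.25% of all genes. Among the 6 were Nr2f2, Vwf, Vcam1, Tmem252 and Adh1. The median log2 difference was 1.43, with 1.57, 0.92, 1.06 and 1.63 on s169s, s480s, s482s and s483s. The summed level of the list was 1411 CPM in high and 527 CPM in low cells. The leukocyte adhesion receptor Vcam1 was uneven, with 90.9, 100.2, 29.7 and 80.1 CPM in high cells against 4.47, 78.0, 32.5 and 2.43 CPM in low cells, so that s482s went the other way. Nrp2, a semaphorin and VEGF-C receptor of veins, stood at 56.3 CPM in high and 11.97 CPM in low cells but was read in too few cells to be compared by the rule. The genes of inflamed or large veins were scarce: Ackr1, the atypical chemokine receptor, had 4.84 and 0.387 CPM, Selp 0.682 and 0.753 CPM, and Sele 0 CPM in both quartiles.

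Arterial genes were lower on the Slc38a5-high side. Gja4, which encodes the gap junction protein connexin 37, had 3.14, 2.21, 2.08 and 2.21 CPM in Slc38a5-high cells of s169s, s480s, s482s and s483s, against 53.3, 42.5, 63.5 and 37.7 CPM in Slc38a5-low cells. The pooled levels were 2.39 and 48.9 CPM, a log2 difference of -2.87, and 0 high cells against 12 low cells had more than 50 CPM. Since the high level lay below the 5 CPM added, the size of this difference depends on that choice, at -3.88 with 1 CPM and -1.62 with 20 CPM added. Alpl, the tissue-nonspecific alkaline phosphatase, had 26.7, 68.5, 97.1 and 92.3 CPM in high cells against 243, 425, 510.2 and 422 CPM in low cells (-2.38). Both genes were separated on all plates. Their start regions follow as the arterial counterpart of those above, from the same RefSeq table and build, with capitals for the same motifs. The Alpl window, 1 of 2 listed for the gene, is chr4:137796335-137796634 and the Gja4 window chr4:127313990-127314289, both on the minus strand.
Alpl: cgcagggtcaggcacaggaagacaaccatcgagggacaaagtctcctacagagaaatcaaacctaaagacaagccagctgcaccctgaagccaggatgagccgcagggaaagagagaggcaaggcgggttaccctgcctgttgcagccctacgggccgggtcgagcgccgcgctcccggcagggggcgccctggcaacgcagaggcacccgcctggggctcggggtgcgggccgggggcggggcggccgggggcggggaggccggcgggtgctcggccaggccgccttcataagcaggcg
Gja4: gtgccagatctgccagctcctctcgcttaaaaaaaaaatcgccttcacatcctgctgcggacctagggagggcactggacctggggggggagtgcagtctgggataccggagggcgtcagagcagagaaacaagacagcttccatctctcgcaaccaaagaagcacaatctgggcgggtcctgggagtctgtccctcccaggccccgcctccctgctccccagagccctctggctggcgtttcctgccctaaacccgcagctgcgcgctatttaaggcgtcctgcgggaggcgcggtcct
Neither window held any of these motifs or CTTTGA, the motif of TCF and LEF factors, on either strand, which says only that these letters are not in these windows. Guanine and cytosine made up 70.0% of the Alpl and 62.0% of the Gja4 window, against 56.0% for Slc38a5 and 45.3% for Adh1. Of the 15 genes named in each direction, 10 of the higher and 11 of the lower ones had a window in the table. AGGTCA was in 3 of the 10 and 0 of the 11, CTTTGA in 3 and 0, TGGGAA in 1 and 3, and CACGTG in 2 and 1, beside 16.0%, 16.2%, 25.5% and 7.24% of all windows.

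Of the Notch pathway a target and a ligand were lower in Slc38a5-high cells. Hey1, a target and effector of Notch, had 4.26, 32.1, 25.6 and 11.3 CPM in high cells against 133, 232, 166 and 60.2 CPM in low cells, a log2 difference of -2.69 with no overlap between the plates. Dll4, the endothelial Notch ligand, had 120, 59.4, 65.4 and 76.5 CPM in high cells against 155, 322, 164 and 186 CPM in low cells (-1.32). Of the 9 measured Notch pathway genes 6 had enough reads to be called, and of these only Hey1 and Dll4 were at least 2-fold lower (1.55% of all genes), with 0 higher (1.25%). The receptor Notch1 stood at 505 CPM in high and 613 CPM in low cells (-0.28), Notch4 at 117 and 113 CPM (0.05), and the target Hes1 at 167 and 232 CPM (-0.46). The median of the list was -0.28, with plates between -0.69 and -0.17.

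Unc5b, the netrin receptor of arterial endothelium, had 15.9, 1.00, 30.4 and 3.87 CPM in high cells against 19.96, 134, 152 and 116 CPM in low cells (-2.66). Its difference was thus small on s169s, at -0.26, and between -4.53 and -2.15 on the other plates. Gkn3, a gastrokine known from mouse brain arteries, had 3.65, 1.41, 2.78 and 13.7 CPM in high cells against 217, 22.4, 41.0 and 18.3 CPM in low cells (-2.79), so that the pooled value leans on s169s. Stmn2, a regulator of microtubules, stood at 10.4 CPM in high and 74.0 CPM in low cells (-2.36), and 58.5% of its reads in high cells came from 1 cell. Rad54b, a DNA repair helicase whose annotated span overlaps Fsbp, stood at 38.5 and 237 CPM (-2.48). Cdkn1c, an inhibitor of cell cycle kinases, had 85.6, 29.1, 82.5 and 79.2 CPM in high cells against 231, 219, 298 and 231 CPM in low cells (-1.73), with no overlap.

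Like Rad54b and Cdkn1c, the other leading genes of the low side are not members of the arterial list. Sncg, which encodes gamma-synuclein, stood at 1.499 CPM in high and 40.6 CPM in low cells (-2.81). Gadd45g, a growth arrest gene, stood at 14.99 and 109 CPM (-2.52), and the polo-like kinase Plk2 at 117 and 407 CPM (-1.76). Snx10, a sorting nexin, stood at 16.3 and 68.8 CPM (-1.79), the deubiquitinase Usp47 at 18.9 and 67.0 CPM (-1.59), the histone deacetylase Hdac4 at 11.8 and 45.3 CPM (-1.58), and Vps41, a subunit of the lysosomal HOPS complex, at 37.6 and 111 CPM (-1.44). Their differences by plate were wide, from -3.70 to -0.37 for Snx10, from -3.31 to -0.33 for Usp47 and from -2.70 to -0.15 for Hdac4. Without s482s Hdac4 stood at -0.64 and was not called, and without s483s Hdac4 (-2.37), Usp47 (-1.49) and Sncg missed the minimum share of cells or level.

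Of the 20 arterial markers 18 were measured, and 17 had a negative difference. Of the 11 with enough reads to be compared, 9 were at least 2-fold lower (1.55% of all genes), with 0 higher. The 9 were Gja4, Gkn3, Hey1, Unc5b, Alpl, Stmn2, Dll4, Mgp and Egfl8. Mgp and Egfl8 were not lower on every plate, from -3.65 to 0.81 for Mgp and from -4.35 to 0.37 for Egfl8, with their lowest values on s169s. The median was -2.03, with -2.28, -1.01, -2.24 and -1.04 on the 4 plates, and the list summed to 670 CPM in high against 1787 CPM in low cells. Bmx, a kinase of large arteries, and Efnb2, the ephrin of arterial identity, pointed the same way but were read in too few cells to be compared by the rule. Bmx had 0.841 CPM in high and 26.4 CPM in low cells, and Efnb2 2.32 and 41.0 CPM. Sox17, an arterial transcription factor, stood at 353 and 424 CPM (-0.26), and Jag1, another Notch ligand, at 24.7 and 27.1 CPM (-0.12).

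**Figure D2:**
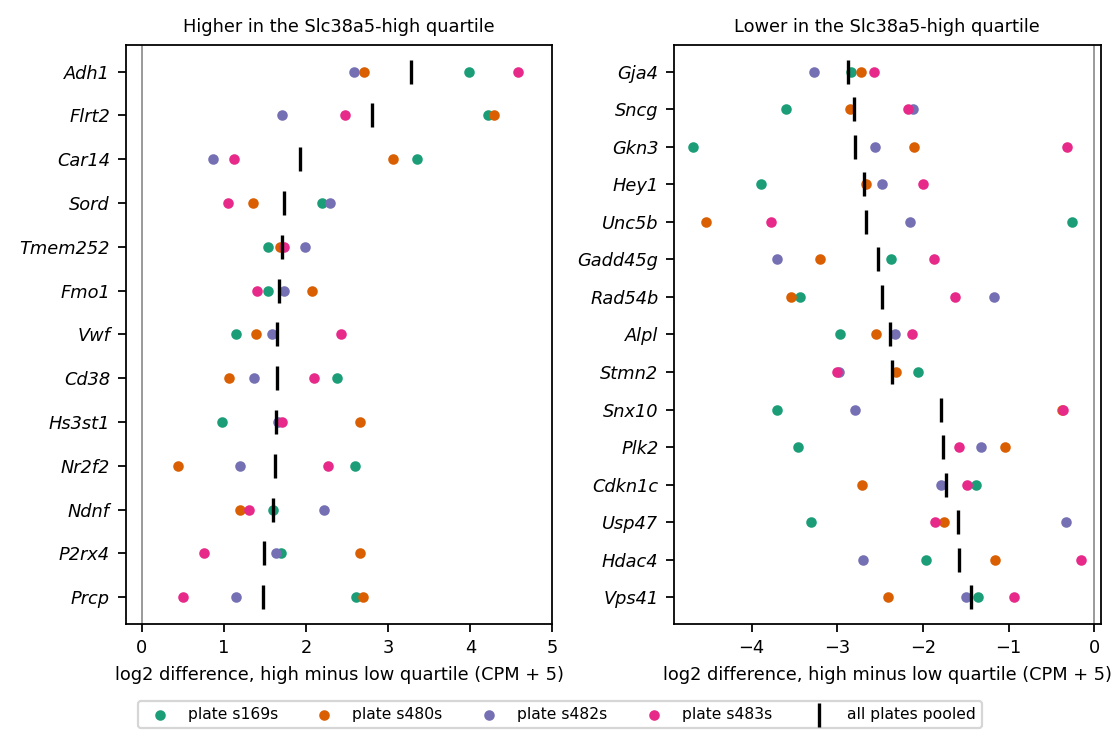
Log2 difference, Slc38a5-high minus Slc38a5-low, on log2(CPM + 5), for 13 named genes higher (left) and 15 lower (right) in high cells. Coloured points are the 4 plates and black bars the pooled value. Tmem252 and Fmo1 are tightly placed, while Hdac4, Unc5b, Gkn3, Usp47 and Snx10 each have at least 1 plate between -0.38 and -0.15.

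Capillary genes known for the arterial side of the bed differed by less than arterial markers. Cxcl12, a chemokine, was the most abundant, with 765, 3348, 2604 and 1980 CPM in Slc38a5-high cells against 1588, 6342, 5502 and 4893 CPM in Slc38a5-low cells. It was lower in high cells on each plate, with a pooled log2 difference of -1.09 and plates between -1.30 and -0.92. The plates themselves differed more than the quartiles, since s169s had the lowest level in both. Tgfb2, a transforming growth factor, stood at 96.9 CPM in high and 232 CPM in low cells (-1.21), with 73.9, 166, 104 and 54.8 CPM in high cells against 235, 273, 229 and 196 CPM in low cells. Slc26a10 stood at 49.4 and 152 CPM (-1.53), but was 0.15 higher on s480s.

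Of the 14 genes of this arterial-side capillary list 13 had a negative difference and 3 were at least 2-fold lower, beside 1.55% of all genes, with a median of -0.63 and plates between -0.69 and -0.37. Members that did not pass 2-fold included Glul, the glutamine synthetase, at 456 CPM in high and 801 CPM in low cells (-0.80, plates between -1.14 and -0.63), and Rgcc, a regulator of the cell cycle, at 339 and 537 CPM (-0.66). Mfsd2a, the lipid transporter that restrains transcytosis at the barrier, stood at 701 and 920 CPM (-0.39), with plates from -1.16 to 0.12. Stra6, the uptake receptor for vitamin A, had 51.6, 488, 367 and 304 CPM in high cells against 10.2, 833, 729 and 631 CPM in low cells. Its direction was reversed on s169s, where both levels were far below those of the other plates. Hmcn1, a matrix protein, was the exception in the list, at 331 CPM in high and 219 CPM in low cells (0.58), with no overlap between the plates.

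Capillary genes known for the venous side were modestly higher in Slc38a5-high cells. Their list of 14 had 11 positive differences and a median of 0.41, with plates between 0.28 and 0.66. The other 3 differences were negative, 1 of them with no overlap between the plates. Of the 12 with enough reads only Ndnf was at least 2-fold higher, beside 1.25% of all genes. Car4, a carbonic anhydrase anchored on the luminal surface, had 2483, 1947, 2373 and 2145 CPM in high cells against 1253, 1155, 1126 and 1364 CPM in low cells. Its plates did not overlap and its log2 difference was 0.86, just short of 2-fold. Slc22a8, an organic anion transporter, had 1681, 1641, 1927 and 1555 CPM in high cells against 959, 1300.0, 1090 and 1273 CPM in low cells (0.55), and Slc16a1, the lactate transporter, 1214, 1057, 1392 and 1260 CPM against 569, 1010, 1041 and 1037 CPM (0.42). Neither overlapped between the quartiles. Tfrc, the transferrin receptor, stood at 876 and 725 CPM (0.27), and Lef1, a transcription factor of the Wnt pathway, at 436 and 422 CPM (0.05).

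For other parts of the barrier the list medians were near that of all genes. Since 1.25% of all genes were called higher and 1.55% lower, a count of 0 in lists of this size says little, and the values are the better guide. Of 8 measured glucose, lactate and thyroid hormone transporters, 0 passed 2-fold and the median was 0.01. The glucose transporter Slc2a1 stood at 3540 CPM in high and 3681 CPM in low cells (-0.06), and the thyroid hormone transporter Slco1c1 at 1741 and 1992 CPM (-0.19), small but with no overlap between the plates. Of 14 measured amino acid transporters besides Slc38a5, 7 had enough reads to be called, 0 passed and the median was 0.01. Slc38a3, a relative that also carries glutamine, stood at 1435 and 1178 CPM (0.28) with plates between 0.26 and 0.49, and Slc7a5, the large neutral amino acid transporter, at 482.3 and 486.5 CPM (-0.01). In the list of 13 measured efflux and organic anion transporters the median was -0.11, and the drug pumps Abcb1a and Abcg2 stood at 787 and 903 CPM (-0.20) and at 1276 and 1151 CPM (0.15).

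Junction, transcytosis and iron genes also had medians near 0. The 14 junction genes, 11 of them with enough reads to be called, had a median of 0.11 and 0 past 2-fold. Cldn5, the main claudin of the barrier, stood at 4571 CPM in high and 4179 CPM in low cells (0.13, plates between 0.07 and 0.21), and Jam2 at 598 and 471 CPM (0.34), with no overlap between the plates. The 16 transcytosis and iron genes, 13 with enough reads, had a median of -0.02 and 0 past 2-fold, but Slc40a1, the iron exporter ferroportin, had 828, 883, 1287 and 1176 CPM in high cells against 418, 687, 793 and 791 CPM in low cells. Its log2 difference was 0.63 and the plates did not overlap. Caveolin, Cav1, stood at 922 and 923 CPM.

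Signalling and immune lists likewise had medians near that of all genes. The 21 measured Wnt and norrin pathway genes had a median of 0.05 and 0 members past 2-fold. The 23 VEGF, TGF-beta and BMP genes had a median of -0.07 with Tgfb2 alone past 2-fold, and the VEGF receptor Flt1 stood at 2300 CPM in high and 2984 CPM in low cells (-0.37, plates between -0.58 and -0.28). Among 17 adhesion and class I antigen presentation genes 15 had enough reads to be compared, and the list median was -0.00. Vcam1 and H2-Q7, 2 of the 15, were at least 2-fold higher (1.25% of all genes). H2-Q7 has near-identical relatives whose reads may be shared. The 16 interferon genes had a median of 0.01, the 14 shear-response genes -0.08, and the 16 nuclear respiratory chain genes 0.05. The 22 immediate early and heat shock genes, which are known to respond to handling, had a median of -0.16, with plates from -0.80 to 0.34 and 0 past 2-fold.

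Of 8 measured retinoid genes only 3 had enough reads to be compared. At least 2-fold higher were 2 of these 3 (1.25% of all genes), Adh1 among them. The list median was 0.33 and ran from -0.41 on s482s to 0.78 on s480s. Aldh1a1, which makes retinoic acid from retinal, stood at 25.3 CPM in high and 0.0646 CPM in low cells but was read in too few cells for the rule. The uptake receptor Stra6, also in this list, was lower in the pooled high cells, at 306 against 563 CPM.

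**Figure D3:**
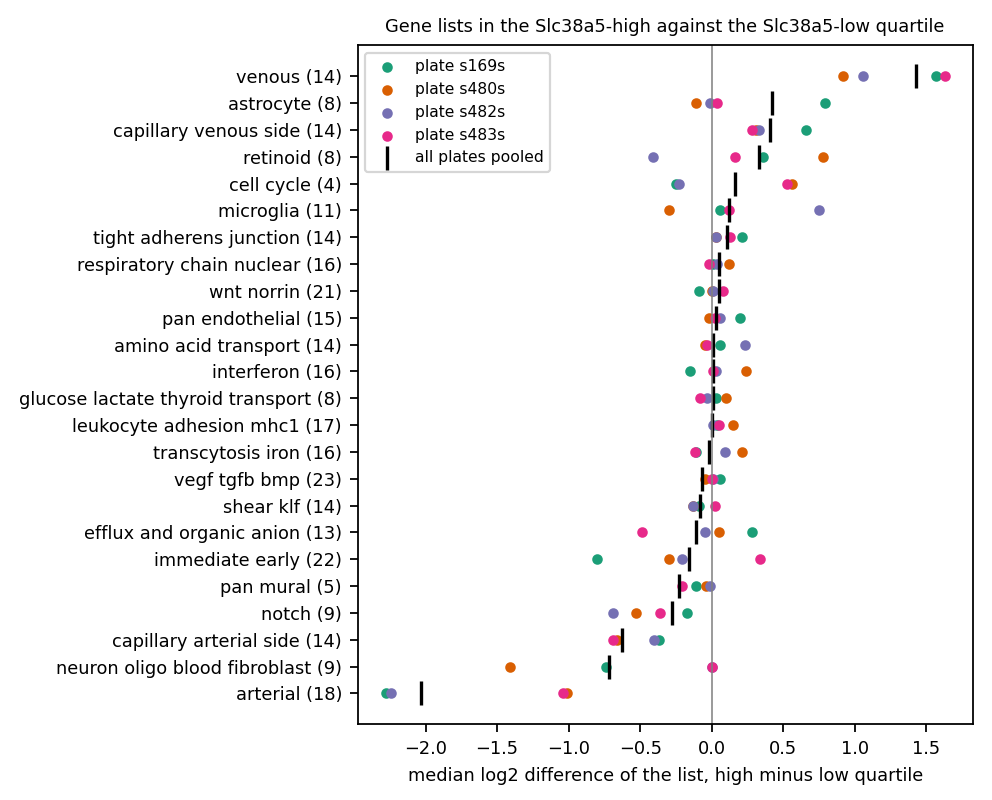
Median log2 difference, Slc38a5-high minus Slc38a5-low, of each of 24 gene lists, with the number of measured members in parentheses. Coloured points are the 4 plates and black bars the pooled value. The arterial list at -2.03 and the venous list at 1.43 lie at the ends, and the transporter and signalling lists lie near 0. The lists of neurons, oligodendrocytes, blood and fibroblasts and of astrocytes hold few reads.

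Both middle quartiles lay between the ends for 38 of the 54 higher and 53 of the 67 lower genes. Of the 54 genes higher in Slc38a5-high cells 27 had a level that increased at every step over the 4 quartiles, beside 4.78% of all genes, and of the 67 lower genes 36 decreased at every step, beside 5.26%. Since a difference between the ends was required of these genes, their order follows in part from it, and only the middle quartiles were not used by the rule. Adh1 stood at 8.85, 29.8, 82.6 and 129.7 CPM from the lowest to the highest quartile, Vwf at 118, 169.7, 270.1 and 382 CPM, and Ndnf at 176, 274, 325 and 541 CPM. Hey1 stood at 144, 99.7, 79.7 and 18.2 CPM, Alpl at 404, 376, 243 and 73.5 CPM, and Cxcl12 at 4644, 4463, 3314 and 2181 CPM.

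The steps were not equal for both sides. The arterial list summed to 1787, 1480, 1110 and 670 CPM over the quartiles and the venous list to 527, 641, 1100 and 1411 CPM. Of Alpl and Cxcl12, the levels in quartiles 1 and 2, both near the background of Slc38a5, were close to each other. Nr2f2 stood at 8.61, 11.2, 12.9 and 36.8 CPM, so its larger step lay between quartiles 3 and 4. With quartile 2 in place of quartile 1, the median of the arterial list was -1.47 and that of the venous list 1.08. Quartile 2 was shallower, with a median of 161876 reads per cell against 215193 in quartile 1.

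**Figure D4:**
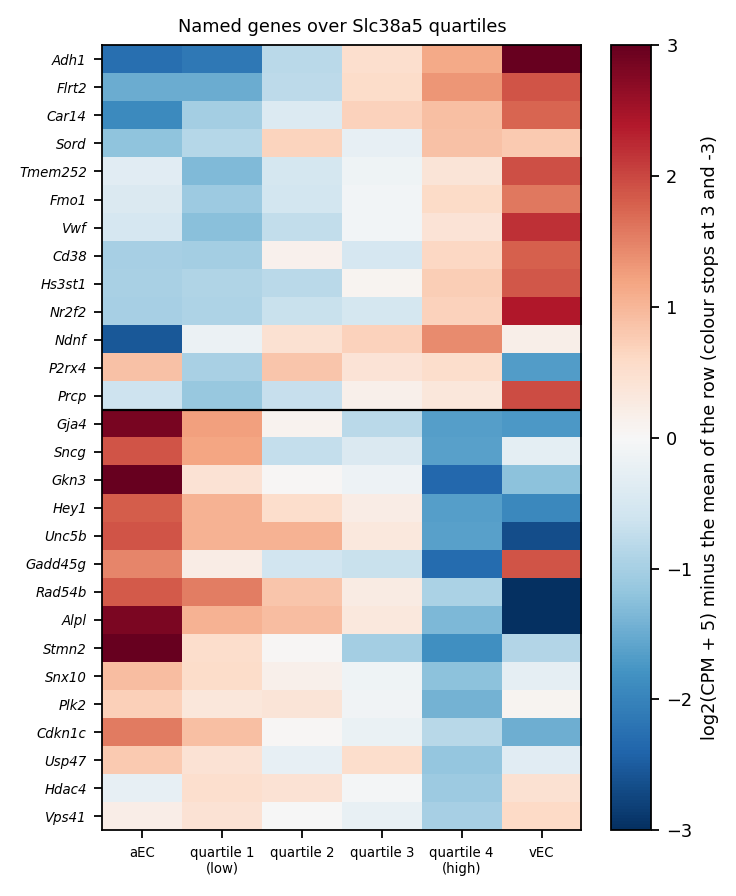
Level of 28 named genes in aEC, in the 4 capilEC quartiles from lowest to highest Slc38a5, and in vEC, as log2(CPM + 5) minus the mean of the row. Red is above and blue below the mean of the gene. Genes above the black line are higher and those below it lower in quartile 4 than in quartile 1. The vein column lies beyond quartile 4 for Vwf and the artery column beyond quartile 1 for Alpl, whereas Gadd45g is high in both aEC and vEC and P2rx4 is high in aEC.

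Cells labelled vEC and aEC took no part in the ranking, so they give levels at the ends of the vascular tree beside those within capillaries. Across 4334 genes the difference between vEC and aEC and that between Slc38a5-high and Slc38a5-low capilEC had a Pearson r of 0.294 and a Spearman rho of 0.168, and 55.2% of genes had the same sign. The r was 0.112 on s169s, 0.167 on s480s, 0.187 on s482s and 0.177 on s483s, the rho 0.038, 0.122, 0.123 and 0.126, and the share with the same sign 48.9, 55.1, 54.5 and 53.6%. On s169s the signs thus did not match more often than not. These are values across genes, which are not independent replicates, and vEC and aEC were pooled from the same plates, with median depths of 261300 and 235862 reads per cell. The way the labels were assigned is not known here, so that genes used for the labels may be among them.

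Among the 136 genes at least 4-fold apart between vEC and aEC, 113 had the same sign within capilEC (83.1%) and the r was 0.723. The slope was 0.288 log2 units within capillaries per log2 unit between veins and arteries. Noise in the vEC and aEC levels, and the choice of genes by their size there, can lower such a slope, which was not tested. Of the 40 genes at least 4-fold higher in vEC, 35 were higher in Slc38a5-high cells, with a median of 0.80, and 18 passed 2-fold, beside 1.25% of all genes. Of the 96 genes at least 4-fold lower in vEC, 78 were lower in Slc38a5-high cells, with a median of -0.50, and 21 passed 2-fold, beside 1.55%. Vwf had 1329 CPM in vEC and 203 CPM in aEC, a difference of 2.68, beside 1.65 within capilEC. Alpl had 9.64 CPM in vEC and 1414 CPM in aEC, a difference of -6.60, beside -2.38 within capilEC.

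The called genes followed the veins and arteries only in part, and by sign the higher genes were near the share of all genes. Of the 54 genes higher in Slc38a5-high cells 31 were higher in vEC than in aEC (57.4%), beside 52.4% of all genes, and 24 were so by at least 2-fold (44.4%), beside 6.51%. Of the 67 lower genes 48 were lower in vEC (71.6%), beside 47.6% of all genes, and 27 by at least 2-fold (40.3%), beside 9.48%. At least 2-fold in the opposite direction were 9 of the 54 and 5 of the 67. P2rx4 had 4.18 CPM in vEC and 48.4 CPM in aEC (-2.54), against its higher level in Slc38a5-high cells. Gadd45g had 359 CPM in vEC and 266 CPM in aEC (0.43), above both capillary quartiles.

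Of aEC, vEC and the capilEC quartiles, a capilEC quartile had the highest level of Ndnf and of Cxcl12. Ndnf stood at 225 CPM in vEC and 30.4 CPM in aEC, below the 541 CPM of Slc38a5-high capilEC. Cxcl12 stood at 371 CPM in vEC and 3390 CPM in aEC, below the 4644 CPM of Slc38a5-low capilEC. The venous-side capillary list summed to 13730 CPM in Slc38a5-high capilEC and 7951 CPM in vEC, and the arterial-side capillary list to 11300 CPM in Slc38a5-low capilEC and 9402 CPM in aEC.

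**Figure D5:**
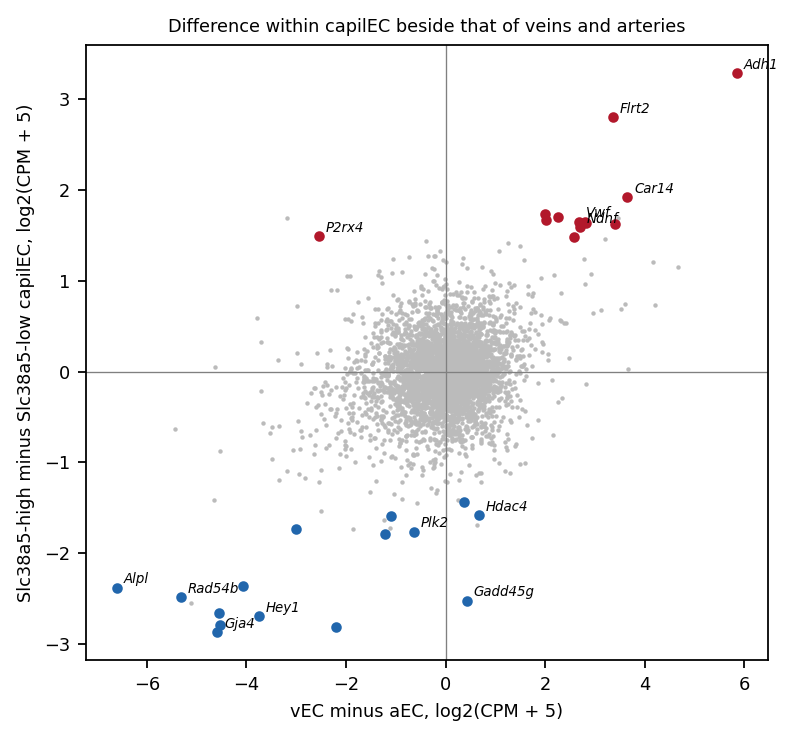
Log2 difference within capilEC, Slc38a5-high minus Slc38a5-low (vertical), against vEC minus aEC (horizontal), for 4334 genes on log2(CPM + 5). Red points are 13 named higher and blue points 15 named lower genes. Most named genes lie in the quadrants of equal sign, and P2rx4, Gadd45g, Hdac4 and Vps41 do not.

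The arterial and venous genes were carried by a minority of cells in each quartile. More than 50 CPM of Alpl was found in 17 of the Slc38a5-high and 65 of the Slc38a5-low cells, of Hey1 in 8 and 32, and of Unc5b in 7 and 30. Of the 32 low cells with Hey1, 16 also had Alpl above this level, and of the 30 with Unc5b, 21 did. In Slc38a5-high cells Adh1 passed 50 CPM in 30 cells and Vwf in 68, and 19 cells had both. Across the sides, Adh1 and Alpl were above this level together in 1 Slc38a5-high and 0 Slc38a5-low cells, and Vwf and Alpl in 5 Slc38a5-high and 16 Slc38a5-low cells.

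At least 3 of the 20 arterial markers above 50 CPM were carried by 13 of the 195 Slc38a5-high cells (6.67%, plates 5.41 to 8.16%) and 72 of the 195 Slc38a5-low cells (36.9%, plates 31.5 to 51.0%). In aEC 96 of 116 cells did (82.8%), and in vEC 14 of 45 (31.1%). At least 3 of the 19 venous markers besides Slc38a5 were carried by 58 of the 195 Slc38a5-high cells (29.7%) and 14 of the Slc38a5-low cells (7.18%), beside 41 of the 45 vEC cells (91.1%) and 21 of the 116 aEC cells (18.1%). Over the quartiles from lowest to highest, the share with 3 or more arterial markers was 36.9, 21.2, 23.1 and 6.67%, and that with 3 or more venous markers 7.18, 8.08, 28.6 and 29.7%. The venous share thus differed mainly between quartiles 2 and 3, where Slc38a5 left the background, and the arterial share mainly at the ends. The median Slc38a5-high cell had 1 arterial and 2 venous markers above this level and the median Slc38a5-low cell 2 and 1. The median aEC cell had 6 arterial and the median vEC cell 9 venous markers, so most capillary cells of either quartile lay well short of the vessels on their side. Without the 79 capilEC cells highest in the arterial or venous list on their plate, 21 of them Slc38a5-high and 20 Slc38a5-low, the list medians were -1.19 and 1.03.

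Of the 787 capilEC cells, 348 lay at or below the MG percentile of their plate and have no safe order among themselves. The high percentile of s482s may make this count too large. Over all 787 cells the gene with the highest rank correlation with Slc38a5 was Tmsb10, an actin-binding thymosin. Its Spearman correlation with Slc38a5, as the mean of the 4 plates, was 0.385, with plates between 0.335 and 0.429. In quartiles it stood at 250.0, 328, 406 and 531 CPM from lowest to highest, and 189 Slc38a5-high cells against 134 Slc38a5-low cells had more than 50 CPM. Car4 came next with 0.327 (0.290 to 0.431). Then followed Net1, an exchange factor for RhoA, with 0.215, Ndnf with 0.208, Gatm, an enzyme of creatine synthesis, with 0.207, Slc22a8 with 0.196, Rnase4 with 0.193, Ddah1, which degrades an inhibitor of nitric oxide synthase, with 0.192, and Itih5 with 0.189. The reads of Rnase4 may be shared with Ang, which overlaps it.

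In the opposite direction Cxcl12 stood apart at -0.351 (-0.408 to -0.257), followed by Rad54b at -0.184, Alpl and Tm4sf1 at -0.168 and Tsc22d1 at -0.160. Of 4216 genes 6 had a mean correlation above 0.2 and 1 below -0.2, and the median was 0.019. Most correlations were thus weak, and in sparse reads a weak value says little. They are given over cells of shared plates and depths, as a description.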

How the data were processed

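The authors deposited raw read counts for 46517 genes and 1235 cells and a type label for each cell (a column of other values, names). Subread 1.4.6-p5 with featureCounts, SAMtools 1.16.1 and the builds GRCm38 and GRCm39 are named per the submitters' processing notes, without roles; the aligner and the use of strand are not given in the sources used here. Every cell had 100021 to 854836 reads, capilEC a median of 192941. 0 cell names were repeated, 0 cells had identical counts, 0 gene rows named no gene, and no doublet caller was run.

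Cells labelled capilEC were ranked by Slc38a5 CPM within each plate, ties by column order, and counts of each quartile were summed and scaled to CPM. Differences are on log2(CPM + 5). A gene was compared with at least 20 CPM and a read in at least 30% of cells in the higher group, and called at 2-fold. A list member was measured above 5 CPM in either quartile. For shares of cells with a read, cells were thinned to 100000 reads. Genes over 50 CPM per cell were counted on all reads. With 1 sample per label no test was run. Named genes are the first 15 in each direction among those with the same direction on all plates, the first 10 positive and 5 negative correlations, and members of the 24 lists; predicted genes, clone names, pseudogenes, mitochondrial and ribosomal protein genes were counted only. Some genes that the rule names are not reported here. The members and lists were chosen with earlier results of these data known. Of 4334 compared genes, antisense and overlapping partners cannot be told apart where strand was not used. Start regions came from RefSeq GRCm38.p6 by symbol. Alternatives used TMM factors (edgeR 4.0.16, R 4.3.3), DESeq2 1.42.0 size factors, other thresholds, cells, cuts and plates. Scripts used Python 3.11.15, NumPy 2.4.6, pandas 2.3.3 and SciPy 1.17.1, and the size rule was tested on simulated data.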

Additional observations from a re-analysis of the deposited data

How the results depend on the processing

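No paired analysis was possible because each label is 1 sample and no test was run. Of 750 values of the 30 leading genes under 25 alternatives, 749 kept their direction and 696 remained past the size rule. P2rx4 had -0.314 with quartile 2 as the low group. These genes were chosen by size and for the same direction on all plates. A change of pseudocount or threshold cannot reverse a difference, so the kept direction was largely fixed beforehand. The 54 genes higher and 67 lower became 25 and 32 with a pseudocount of 20 CPM, 363 and 365 with no minimum share of cells, 271 and 295 at 1.5-fold, 35 and 27 at equal depth (17 and 23 of them among the 54 and 67), and 23 and 15 with the ranking split once at its middle. With 3 groups in place of 4 quartiles 43 were lower, and in cells of at least 150000 reads 107 were higher. The arterial median was -1.12 with a pseudocount of 20, -1.01 with 1 split at the middle and -1.19 without the cells highest in the arterial or venous list, and the venous median 0.97, 1.04 and 1.03; in cells of at least 150000 reads the venous median was 1.85. The arterial-side capillary median was -0.39 with 1 split and -0.82 ranked over all plates. The r with vEC minus aEC was 0.185 with no minimum share, 0.343 at equal depth, 0.33 with 3 groups, 0.364 ranked over all plates, 0.248 without the highest cells and 0.237 with quartile 2 as the low group. Leaving out each plate gave 85 to 96 genes higher, 84 to 113 lower, an arterial median of -2.14 to -1.58, a venous median of 1.07 to 1.66 and an r of 0.251 to 0.292; the arterial-side and venous-side capillary medians were -0.781 to -0.513 and 0.259 to 0.461. Causes were not tested. Quartile 2 as the low group, a low group at the level of MG cells and equal weight per plate were chosen after seeing the data; in the first of these, 18 of the 54 and 20 of the 67 genes were called again. Depth limits genes under 20 CPM, and without replicates no difference has an error between animals.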
